A study of Mus musculus with 384 samples.

Results

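Here 10 chaperone genes were followed by gene name in single-cell libraries from mouse retina, out of 55331 gene IDs in the deposited tables. They are Hsph1, the HSP110 protein also called HSP105, and Hspa4, a second HSP110 protein. The cytosolic HSP90 pair Hsp90aa1 and Hsp90ab1, the constitutive HSP70 gene Hspa8 and the HSP40 genes Dnaja1 and Dnajb1 belong to the same cytosolic cycle. Hspa5 encodes BiP, the HSP70 protein of the endoplasmic reticulum, and Hspd1 and Hspe1 encode mitochondrial HSP60 and HSP10. The set was put together around Hsph1 with values of these same libraries known, so every level and ratio of the members below is a description.

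Molecular chaperones bind unfolded or partly folded proteins, and the heat shock proteins among them are grouped in families by size. HSP70 proteins take up exposed stretches of a client protein in cycles driven by ATP, HSP40 proteins deliver the clients and start the cycle, and HSP110 proteins release the nucleotide that ends it. HSP90 proteins receive clients such as kinases and steroid receptors from HSP70, while HSP60 and HSP10 form a folding chamber in mitochondria. The transcription factor HSF1 raises many of these genes under heat or proteotoxic stress, but neurons also keep large amounts of several of them without stress.

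The libraries came from 384 retinal cells labelled as ipRGCs, the ganglion cells that contain melanopsin (Opn4) and sense light directly, as many from postnatal day 1 (P1) as from P5. All cells of both ages had the genotype Opn4Cre/+; Brn3bzDta/+; Rosa26fsTRAP/+. Cre is made where Opn4 is or was active, the TRAP allele then makes a GFP-tagged ribosomal protein, and the zDta allele places a Cre-dependent diphtheria toxin in the gene for Brn3b, which is also called Pou4f2. There was no group without these alleles. Retinas were dissociated in warm papain, and single cells positive for GFP and for CD90 were sorted into lysis solution and made into Smart-seq2 libraries, in which full-length cDNA is sequenced without molecular identifiers. No label names the animals, so each age counted as 1 sample, and all intervals below cover counting error only.

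Cells with at least 1000 genes of 0.99 or more fragments were kept, which left 190 P1 cells, with 2 left out, and all but 10 of the P5 cells. The kept cell nearest to this limit had 2278 genes at P1 and 1297 at P5, and the nearest cell left out had 872 genes at P1 and only 23516 fragments at P5. Kept cells held 486710 to 1452724 fragments at P1 and 264527 to 1449792 at P5. The median number of detected genes was 5081 at P1 and 6600 at P5, and 94.5% of 10229 genes with enough fragments were found in a larger share of the P5 cells. The ages also differed in sex transcripts, since 150 P1 cells held Xist and no Y-linked fragment while 160 P5 cells held Y-linked fragments and no Xist. Haemoglobin fragments were found in all but 62 of the P1 cells and in 7 P5 cells. The ganglion cell marker Rbpms was found in 92.1% of P1 and 96.7% of P5 cells, Opn4 in 70% and 67.6%, and Pou4f2 in 44.2% and 56.6%, so the label of ganglion cells held in most cells, although transcripts of the gene that carries the toxin allele were common.

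Short stretches from the RefSeq promoter windows (GRCm38.p6, 250 bases before to 50 after each start site) are shown first. The heat shock element is a well known site of regulation of many heat shock genes. HSF1 binds alternating GAA and TTC units, and the windows were searched on both strands for 3 such units (GAANNTTCNNGAA) and for pairs of them (GAANNTTC or TTCNNGAA, which every 3-unit match also contains). They were also searched for the endoplasmic reticulum stress response element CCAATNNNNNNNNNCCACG. Windows were given for 7 of the 10 genes and numbered 12, with Hsp90aa1, Hsp90ab1 and Hspa8 not in the table. Each stretch is 30 bases, 5′ to 3′ on the strand of the gene, with the matched letters in capitals.
Hsph1 3-unit match, chr5:149636280-149636309, minus strand: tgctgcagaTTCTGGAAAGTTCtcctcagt
Hsph1 2-unit match, chr5:149636351-149636380, minus strand: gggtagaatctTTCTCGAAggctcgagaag
Hspd1 and Hspe1, chr1:55088053-55088082, plus strand: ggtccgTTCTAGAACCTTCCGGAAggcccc
Hspa5, chr2:34772019-34772048, plus strand: acttcaCCAATCGGAGGCCTCCACGacggg
Dnaja1, chr4:40722333-40722362, plus strand: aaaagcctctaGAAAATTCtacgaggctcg

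The 3-unit element was found in the windows of Hsph1, Hspd1 and Hspe1 and in 198 of all 32851 windows (0.603%). In Hsph1 its bases ran from 16 to 28 after the downstream of the 2 RefSeq start sites, inside the 5′ UTR of GENCODE transcripts, and a 2-unit match lay 54 to 47 bases before that site, in the 5′ UTR of 1 longer transcript. The Hspd1 and Hspe1 genes stand head to head, and a window of each held the same 18 bases, 89 to 72 before the Hspe1 start and in the 5′ UTR of 1 Hspd1 transcript, with 2 overlapping 3-unit matches. Dnaja1 held only a GAANNTTC pair, which occurred in 7.86% of all windows, and TTCNNGAA occurred in 8.52%. The endoplasmic reticulum element was found in the window of Hspa5, 65 to 47 bases before its RefSeq start and in the 5′ UTR of 1 GENCODE transcript, and in 0.119% of all windows. Neither window of Dnajb1 nor that of Hspa4 held any of these letters. A match describes the letters only, and the files hold no binding data.

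Levels between genes were compared as mean FPKM, which divides by transcript length. By this measure Hsp90aa1 led the set at P1 with 846 ± 720 FPKM (SD over 190 cells), ahead of Hspa8 with 770 ± 573 and Hsp90ab1 with 712 ± 442. These 3 genes lay above 99% of the genes tested at both ages by mean FPKM, with percentiles of 99.1 to 99.4 at P1 and 99.2 to 99.6 at P5. Dnaja1 followed with 251 ± 183.1 FPKM at P1, then Hspe1 with 165.5 ± 192.3, Hspa5 with 147.5 ± 194 and Hspd1 with 99.6 ± 132.1. Hspa4 (24.4 ± 58.4), Dnajb1 (23.1 ± 63.6) and Hsph1 (13.5 ± 41.7) had the lowest mean FPKM at P1, with SDs larger than their means. At P5 the first 4 places were the same, and Hsph1 with 24.1 ± 41.4 FPKM stood above Dnajb1 with 21.03 ± 26.9 and Hspa4 with 16.1 ± 29.8. Neighbours in this order differed by less than the larger of their SDs over cells, except Hsp90ab1 and Dnaja1 at P1. The 2 cytosolic HSP90 genes and Hspa8 together held most of the chaperone RNA, and of all fragments of the 10 genes Hspa8 took 27.3% at P1 and 33.3% at P5, against 0.557% and 1.07% for Hsph1.

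The age comparison asks which chaperones differed between P1 and P5 sorted cells. A level here is the summed CPM, the fragments of a gene over all cells of an age per 1000000 fragments of those cells. Hsph1 had 26.7 CPM at P1 (exact Poisson 95% interval 25.9 to 27.5, 4661 fragments) and 64.7 CPM at P5 (63.4 to 65.96, 10153 fragments), a 2.42-fold difference or 1.28 on the log2 scale. Of the 10229 genes with at least 10 CPM at either age, 2.75% were at least 2-fold higher at P5 and 2.88% at least 2-fold lower. Among the 10 chaperones, all of which passed this minimum, 1 was at least 2-fold higher (Hsph1) and 0 were 2-fold lower. With 1 sample per age no test was possible. Hsph1 was past 2-fold on this scale but not on the deposited common scale, where its mean FPKM was 1.79-fold higher at P5 while the median of all tested genes was lower by 0.56 on the log2 scale. Relative to that median the FPKM difference of Hsph1 was 1.40 on the log2 scale. Without the cells that held a haemoglobin fragment, which left 62 P1 cells and all but 7 P5 cells, Hsph1 was 1.87-fold higher, under 2-fold.

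The haemoglobin fragments moved with age and with sex transcripts. Of the P1 cells with such a fragment 25 held Y-linked fragments only, against 1 of the 62 without. Hsph1 was at 22.9 CPM in the former and 35.2 CPM in the latter, and it was found in 19.5% (13.1 to 27.5) and 29.03% (18.2 to 41.9) of them. Both values lay under the 65.97 CPM of P5 cells without haemoglobin. The 7 P5 cells with a haemoglobin fragment were at 34.1 CPM, close to the P1 cells without one. Hsph1 was found in 57.1% (18.4 to 90.1) of these 7 cells. The part of haemoglobin in the difference between ages was not tested. Among cells with Y-linked fragments and no Xist, 26 at P1 and 160 at P5, Hsph1 was at 29.9 and 69.2 CPM, a 2.31-fold difference. Of these 26 P1 cells 25 held haemoglobin fragments, and Hsph1 was found in 19.2% (6.55 to 39.4) of them. P1 cells with Xist only had 27.8 CPM.

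Hsph1 was found in more cells at P5, while its median level in the cells that held it was nearly the same. A cell in which its transcript was missed counts as a cell without it. A difference in the share of cells and one in the level per cell therefore cannot be told apart here. It was detected in 43 of 190 P1 cells (22.6%, exact binomial 95% interval 16.9 to 29.2) and in 57.7% of P5 cells (50.2 to 64.97). In the cells that held it, the median was 86.5 CPM at P1 and 89.4 CPM at P5, a 1.03-fold difference. Thinning every cell to 50000 fragments gave shares of 19.5% and 51.1%. At P1 the level per cell ran from 0 to 482 CPM with a median of 0, and at P5 from 0 to 478 CPM with a median of 23.7. The 10 highest cells held 55.2% of the Hsph1 fragments at P1 and 28.4% at P5. P5 cells also held more genes per cell, so the share was set against all genes.

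Shares were larger at P5 for most genes, by a median of 10.9 percentage points over the 10229 genes, and by 8.80 points after thinning. The intervals of the shares did not overlap, with P5 higher, for 39.9% of these genes and, with P5 lower, for 0.137%. For the chaperones they lay apart with P5 higher in 5 of 10, namely Hsph1, Hspa5, Hspa4, Dnajb1 and Hspe1, and with P5 lower in 0. The difference for Hsph1 was 35.1 points, larger than for 99.9% of all genes, and for Dnajb1, the HSP40 partner of the cytosolic cycle, it was 28.9 points (32.1% to 60.99%), larger than for 99.04%. Hspa4 was found in 42.1% and 64.8% of cells, but in 32.1% and 43.4% after thinning. Hspa5 was found in 80% and 91.8%, Hspd1 in 82.1% and 91.8%, and Hspe1 in 80.5% and 92.3%. Hsp90aa1, Hsp90ab1, Hspa8 and Dnaja1 were found in 96.8% to 100% of cells at both ages, so a share says little about them.

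**Figure D1:**
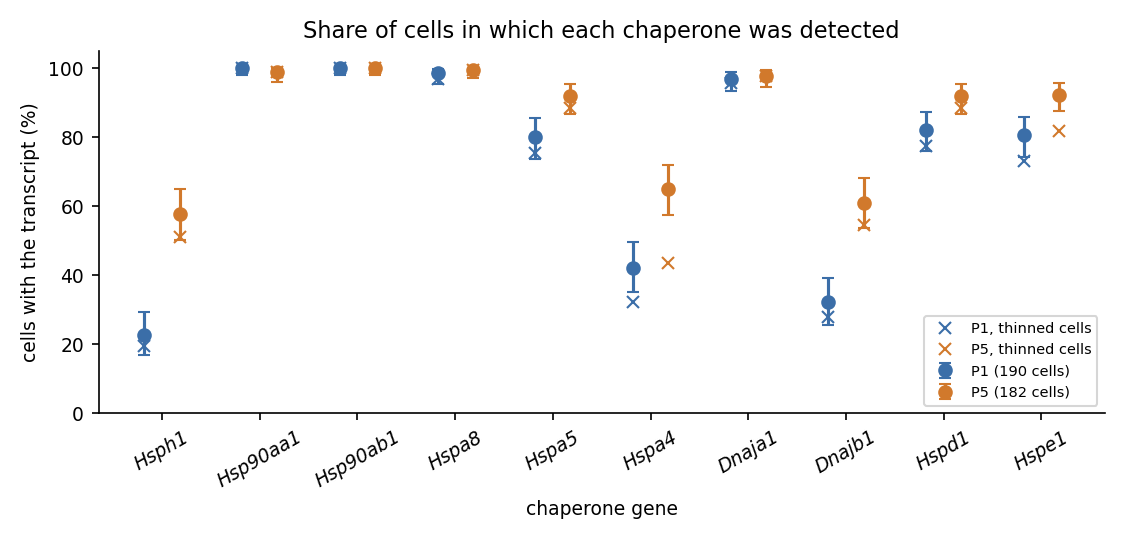
Share of kept cells (%) with at least 0.99 fragments of each chaperone at P1 (blue) and P5 (orange), with exact binomial 95% intervals as bars and the share after thinning every cell to 50000 fragments as crosses. Hsph1 and Dnajb1 show the widest gaps between ages, 22.6% to 57.7% and 32.1% to 60.99%, while 4 genes are near 100% at both ages.

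Among the cytosolic partners, Hspa8 differed most after Hsph1 by summed CPM. The log2 ratio of Dnajb1 was above that of Hspa8 in cells with Y-linked fragments only (1.05 against 0.65), without the top 5% of cells of each gene (0.98 against 0.61) and on the mean of log2(CPM + 1) (1.74 against 0.88), on which Hspa4 was above it too (0.94). The summed level of Hspa8 was 1311 CPM at P1 and 2010 CPM at P5, a 1.53-fold difference that was higher than for 91.8% of the genes tested. Unlike Hsph1, Hspa8 was found in nearly every cell, and its median in the cells that held it was 1.53-fold higher too, at 1360 and 2080 CPM. Hsp90aa1, the stress-responsive HSP90 form, was at 1101 and 1446 CPM (1.31-fold), and Hsp90ab1, the constitutive form, at 1186 and 1265 CPM (1.07-fold). Dnajb1 was at 53.6 and 73.3 CPM (1.37-fold), Dnaja1 at 538 and 551 CPM (1.02-fold) and Hspa4 at 45 and 47.8 CPM (1.06-fold). Of the organelle chaperones Hspa5 was at 295 and 351 CPM (1.19-fold), Hspd1 at 161.8 and 158.7 CPM (0.980-fold) and Hspe1 at 78.3 and 74.6 CPM (0.953-fold). The median log2 ratio of the 10 members was 0.17, against 0.00 for all genes tested.

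The direction of the smaller differences depended on the scale. By mean FPKM, without allowing for the lower median of all genes, only Hsph1 and Hspa8 (1.04-fold) were higher at P5 and the other 8 were lower, from 0.638-fold for Hspe1 to 0.953-fold for Hsp90aa1. Relative to the median of all genes, the FPKM difference was 0.62 for Hspa8, 0.49 for Hsp90aa1 and 0.43 for Dnajb1 on the log2 scale, close to their CPM differences of 0.62, 0.39 and 0.45. The FPKM difference of Hspa4 was -0.04 on that footing, against 0.09 by CPM. Taking the fragments of all 10 genes as one sum, they made up 0.480% of all fragments at P1 and 0.604% at P5.

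**Figure D2:**
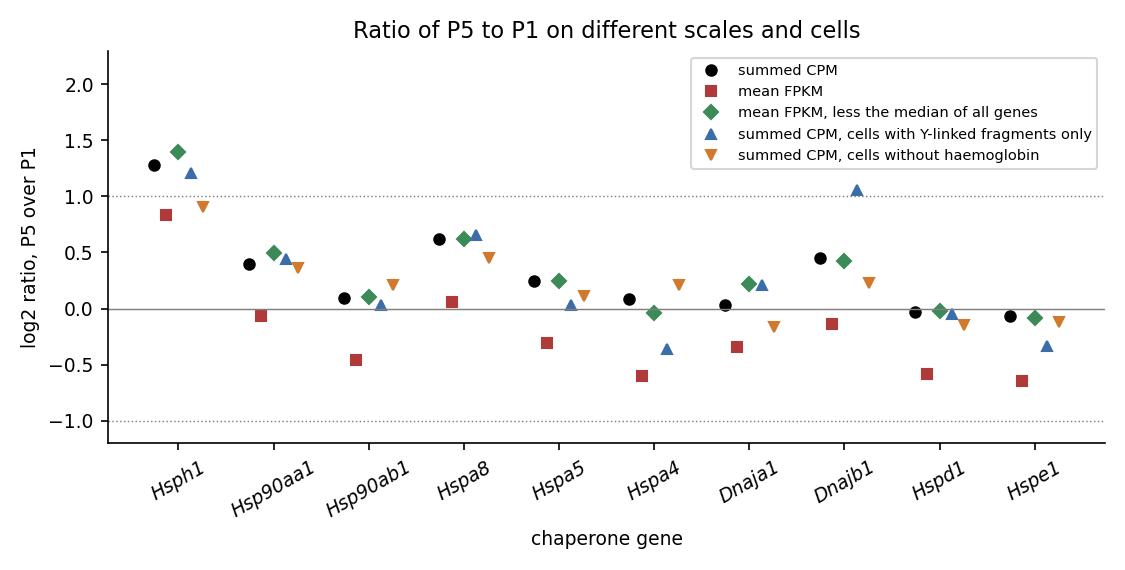
Log2 ratio of P5 over P1 for each chaperone by summed CPM (circles), mean FPKM (squares), mean FPKM less the median of all tested genes (diamonds), and summed CPM in cells with Y-linked fragments only (upward triangles) or without haemoglobin fragments (downward triangles). Dotted lines mark 2-fold. Hsph1 is the highest gene on each scale, from 0.84 by mean FPKM to 1.40 relative to all genes, and Dnajb1 passes 2-fold only in the cells with Y-linked fragments (1.05).

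The cell numbers in the labels were split into 4 stretches of 48 per age, called runs here, to see how far levels varied within an age. They are not labelled batches, and they may share animals. Hsph1 was at 42.3, 27.3, 12.7 and 26.9 CPM in the P1 runs and at 66.9, 56.7, 50.2 and 82.9 CPM in the P5 runs. Each P5 run was above each P1 run, although the P1 runs differed among themselves by more than 3-fold. Hspa8 was at 1234, 1257, 1514 and 1246 CPM in the P1 runs and at 1745, 2031, 1903 and 2274 CPM in the P5 runs. Hsp90aa1 was at 1212, 1159, 891 and 1144 CPM at P1 and at 1606, 1318, 1406 and 1487 CPM at P5. These were the 3 of 10 chaperones whose runs did not overlap with P5 higher, and 4.28% of all genes tested did the same. With P5 lower, runs did not overlap for 4.2% of genes and for 0 chaperones. The runs of the other 7 overlapped, as for Dnajb1 with 38.9 to 82.2 CPM at P1 and 57.1 to 97.5 CPM at P5. Haemoglobin was found in 31 to 33 cells of each P1 run and in 1 to 3 cells of each P5 run.

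**Figure D3:**
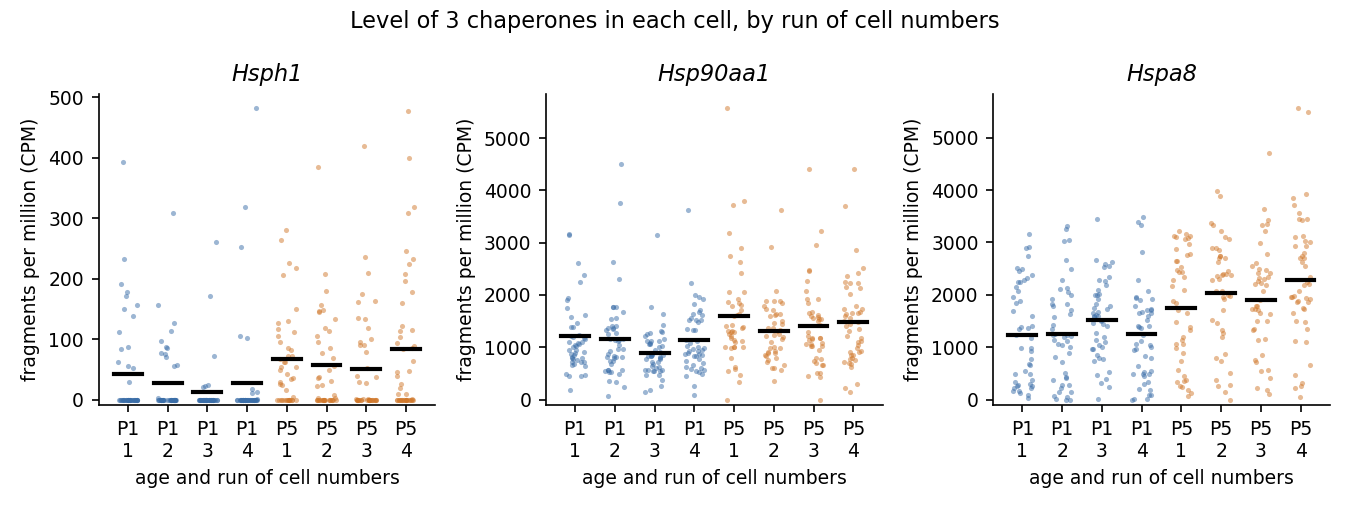
Level of Hsph1, Hsp90aa1 and Hspa8 in each kept cell (points, CPM) in the 4 runs of cell numbers at P1 (blue) and P5 (orange), with the summed CPM of the run as a black bar. Most P1 cells are at 0 for Hsph1, with run levels of 12.7 to 42.3 CPM against 50.2 to 82.9 CPM at P5, and Hspa8 spreads from near 0 to 5564 CPM over the cells.

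The spread over cells differed widely between the members. Hsp90ab1 was the most even, with a coefficient of variation of 0.440 at P1 and 0.352 at P5, and from 195 to 3223 CPM per cell at P1 it was at 0 in no cell. Hspa8 had a wider range, with quartiles of 524 and 1932 CPM at P1 and of 1216 and 2744 CPM at P5. The coefficient was 2.60 at P1 and 1.42 at P5 for Hsph1, 2.62 and 1.27 for Dnajb1 and 2.25 and 1.76 for Hspa4, the 3 least abundant members. Cells held a median of 7 of the 10 chaperones at P1 (3 to 10) and 9 at P5 (2 to 10). All 10 were found together in 5 P1 cells (2.63%) and 45 P5 cells (24.7%).

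Cells were next compared by detection of Opn4, which encodes melanopsin, and of Pou4f2, which sets apart the ipRGCs that project mainly outside the suprachiasmatic nucleus. Of the P1 cells 76 held Opn4 only, 57 held both, 27 held Pou4f2 only and 30 held neither, and of the P5 cells 65, 58, 45 and 14. A class defined by a transcript that is not found may contain cells in which it was missed. At P1 Hsph1 was at 13.1 CPM in the cells with Opn4 only, 50.3 CPM with both, 36.2 CPM with Pou4f2 only and 11.3 CPM with neither. It was found in 11.8% (5.56 to 21.3) of the cells with Opn4 only and in 36.8% of the cells with both. At P5 the 4 classes were close, at 62.8, 58.2, 76.9 and 62.2 CPM, and the lowest and the highest share were 50% and 66.7%. At P1 the 2 classes without Pou4f2 were the lowest. In the cells with neither, 1 cell held 48.3% of the Hsph1 fragments, and without it the level was 5.99 CPM. The P5 over P1 ratio was 4.79-fold in cells with Opn4 only, 1.16-fold with both, 2.13-fold with Pou4f2 only and 5.49-fold with neither, a difference that was not tested.

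Set against all other cells of the age, cells with Opn4 only had 13.1 against 35.9 CPM of Hsph1 at P1, a log2 ratio of -1.45. At least 2-fold lower in this comparison were 7.33% of 10359 genes and 1 chaperone (Hsph1), and at least 2-fold higher were 6.33% of genes and 0 chaperones. At P5 the log2 ratio of Hsph1 was -0.07, with 8.45% of 10290 genes 2-fold lower, 4.42% 2-fold higher and 0 chaperones in either direction. A single cell held 32.97% of the Hsph1 fragments of the P1 cells with Opn4 only, and without it their level was 8.92 CPM. Without the cells that held haemoglobin the P1 log2 ratio was -0.89, under 2-fold. The median number of detected genes was 5004 in the P1 cells with Opn4 only and 5462 in those with both. It was 5397 with Pou4f2 only and 4471.5 with neither. The Hsph1 levels of the P1 classes had the same order, and a link was not tested.

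Other members followed other orders. Hsp90aa1 was lowest in cells with Opn4 only at both ages, at 977 CPM at P1 and 1055 CPM at P5, and at P5 it reached 2099 CPM in cells with Pou4f2 only and 1908 CPM in cells with neither, a log2 ratio of -0.66 for Opn4 only against the rest. Hspa8 was highest in cells with Opn4 only at both ages, at 1577 CPM against 985 to 1215 CPM in the other classes at P1 and at 2166 CPM against 1907 to 1943 CPM at P5. Hspa4, the other HSP110 gene, was at 59.5 CPM in P1 cells with Opn4 only and 35.2 CPM in the rest, the opposite order to Hsph1, and at 49.5 and 46.8 CPM at P5. Hspd1, the HSP60 gene, was the most even, at 151.6 to 166.2 CPM over the P1 classes and 154.6 to 173.1 CPM over the P5 classes. None of these differences reached 2-fold against the rest of the cells.

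**Figure D4:**
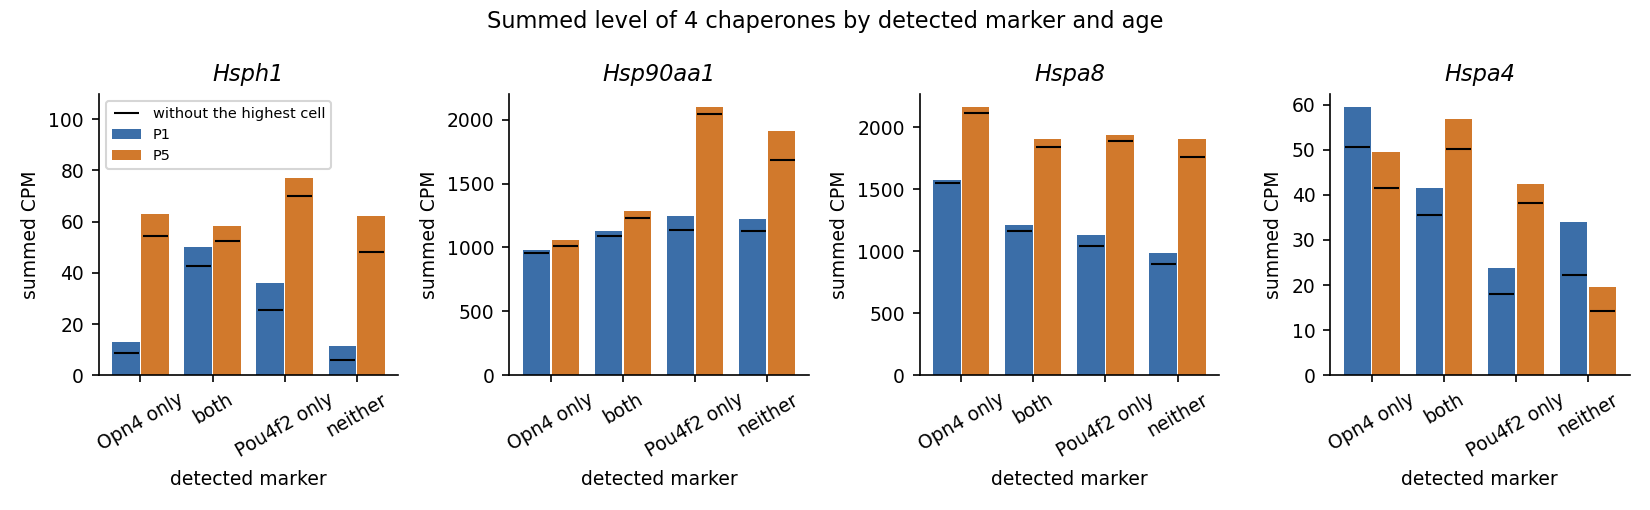
Summed CPM of Hsph1, Hsp90aa1, Hspa8 and Hspa4 in cells with Opn4 only, both transcripts, Pou4f2 only or neither, at P1 (blue bars) and P5 (orange bars), with the level without the highest single cell as a black line. Hsph1 is at 13.1 and 11.3 CPM in the P1 classes without Pou4f2 and at 58.2 to 76.9 CPM in all P5 classes, while Hsp90aa1 at P5 is highest with Pou4f2 only (2099 CPM).

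Correlations between the chaperones from cell to cell were low. Over the 45 pairs of members the median Spearman rho was 0.06 at P1 (-0.25 to 0.20, 190 cells) and 0.06 at P5 (-0.15 to 0.25), and 0 pairs were above 0.3. Over all pairs of the 3714 genes found in at least 50% of the cells of each age, the median was 0.02 at both ages. Of these pairs 0.0946% at P1 and 0.324% at P5 were above 0.3. Their 5th to 95th percentiles were -0.12 to 0.16 at P1 and -0.14 to 0.18 at P5, and the extremes of the member pairs lay outside. Hsph1, Dnajb1 and Hspa4 were found in 22.6%, 32.1% and 42.1% of P1 cells. They are therefore not among the 3714 genes, and their pairs hold many ties at 0. Both values of a cell come from 1 library and share its depth, and rho of Hsph1 with the number of detected genes was 0.25 at P1 and 0.16 at P5, so weak values are no finding. The highest pair at both ages was Hsp90ab1 with Hspa8 (0.20 and 0.25), 2 constitutive cytosolic chaperones, and Hspa8 with Hspa5 had 0.19 and 0.20. The lowest was Hsp90aa1 with Hspa8 (-0.25 and -0.15). These pairs are picked as extremes of the 45 and were not tested. Hspd1 and Hspe1, which share a promoter region, had -0.05 at P1 and 0.23 at P5.

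**Figure D5:**
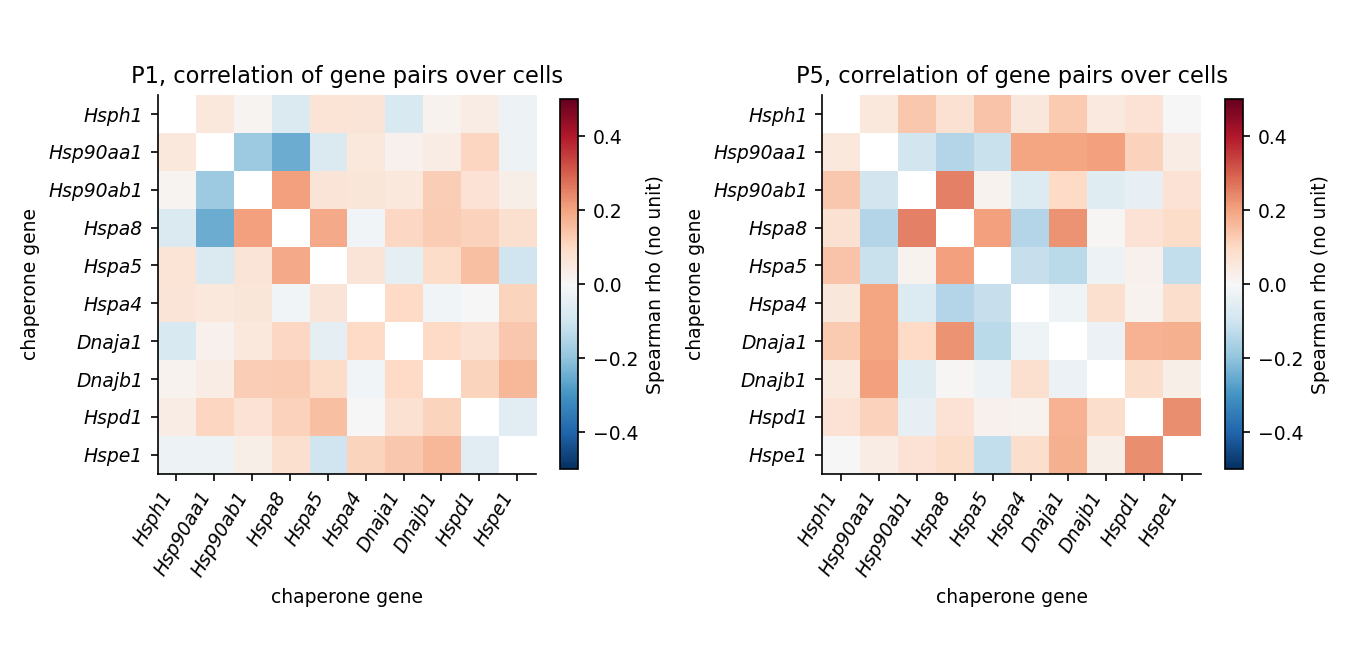
Spearman rho over cells for each pair of the 10 chaperones at P1 (left) and P5 (right), from -0.5 (blue) to 0.5 (red), with the diagonal blank. The colours are pale throughout, between -0.25 and 0.25, with Hsp90ab1 and Hspa8 the strongest positive pair at both ages and Hsp90aa1 and Hspa8 the strongest negative one.

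Of the genes found in at least 50% of cells at both ages, the 10 with a pattern over cells most like Hsph1 were Gm14494, Samm50, Slc35b1, Fars2, Wdr6, Bcl9, Eif3l, Terf2ip, Sorbs2 and Nvl, with a mean rho of the ages of 0.20 to 0.24. No member of the chaperone lists was among them. For Hspa8 the most alike genes that are not copies of it were Tubb5 (0.55 at P1 and 0.52 at P5), a tubulin, Actb (0.38 and 0.60), an actin, and Tuba1b (0.49 and 0.43), another tubulin, all cytoskeleton genes of growing neurons. For Hsp90aa1 the first such gene was the histone H3f3b (0.46 and 0.60). Hsp90ab1 was most like Tubb3 (0.26 and 0.26). Hspa5 was most like Reep1 (0.24 and 0.28) and then Stmn2 (0.20 and 0.29). Next came Hsp90b1 (0.13 and 0.36), the HSP90 form of the endoplasmic reticulum. The P1 value of Hsp90b1 lay within the 5th to 95th percentiles of all pairs (-0.12 to 0.16). These values describe cells of 1 sample per age and have no test.

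Other genes of the folding system were counted in lists. No list of the folding system had more than 1 gene past 2-fold, against 2.75% and 2.88% of all genes. Among 5 tested of 9 other HSP70 and HSP110 genes 0 were past 2-fold with a median log2 ratio of -0.09, from Hspa4l (90.9 to 107.4 CPM), the closest relative of Hspa4, to Hspa9 (159.7 to 132.2 CPM), mitochondrial HSP70. The strongly heat-inducible Hspa1a was found in 9.47% of P1 and 14.8% of P5 cells, at 6.29 and 6.38 CPM, and Hspa1b at 0.372 and 0.159 CPM. Of 11 tested HSP40 genes 1 was higher, Dnajb5 (7.03 to 17.2 CPM), and 0 were lower, with Dnajb6 at 194 and 144.5 CPM and a median of 0.00. The 16 tested cochaperones of HSP90 and HSP70 had 0 past 2-fold and a median of 0.22, with Stip1, which links the 2 machines, at 144.2 and 198.7 CPM and Fkbp5 at 35.5 and 26.3 CPM.

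Of 7 small heat shock protein genes only Hspb1 reached the CPM minimum, at 5.62 and 11.9 CPM, past 2-fold but near that minimum, and 3 of the 7, Cryab among them, were at 0 in all cells. The 3 tested genes of the heat shock factor list had 0 past 2-fold and a median of -0.03, with Hsf1, which encodes a heat shock factor, at 20.2 and 26.4 CPM and Hsf2 at 186.3 and 137.6 CPM. The 8 subunits of TRiC, the cytosolic chaperonin, had a median of 0.20 and 0 past 2-fold, from Tcp1 (379 to 471 CPM) to Cct2 (270 to 258 CPM). The 6 prefoldin genes, whose product hands actin and tubulin to TRiC, had a median of -0.08, from Pfdn1 (125.4 to 155.5 CPM) to Pfdn6 (93.8 to 70.4 CPM). The 16 tested genes of folding and stress in the endoplasmic reticulum had 0 past 2-fold and a median of 0.24, from Xbp1 (97.1 to 153.98 CPM), a transcription factor of the unfolded protein response, to Dnajb11 (81.9 to 68.8 CPM). The 7 mitochondrial folding genes had a median of -0.01, from Trap1 (48.2 to 66.3 CPM), mitochondrial HSP90, to Grpel2 (92.9 to 70.2 CPM).

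Immediate early genes, which cells can switch on during dissociation, summed to 142.7 CPM at P1 and 137.2 CPM at P5. Of 15 such genes 5 were tested and 0 were past 2-fold, with a median log2 ratio of -0.09, from Btg2 (12.5 to 24.1 CPM) to Egr1 (15.9 to 10.7 CPM). Fos was at 2.78 and 2.34 CPM and was found in 2.63% and 5.49% of cells. Dusp1, a phosphatase that acts on MAP kinases, was at 59.9 and 41.1 CPM in 27.4% and 32.4% of cells, and Jund was found in 48.9% and 64.3% of cells. The summed level of this list had a rho of -0.03 with Hsph1 at P1 and 0.00 at P5. The papain step was the same for both ages, and its part in the Hsph1 level was not tested.

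Markers of other retinal cells were mostly near 0. Summed over each list, the photoreceptor genes were at 2.14 CPM at P1 and 3.73 at P5, the astrocyte genes at 0.979 and 1.45, the microglia genes at 2.22 and 0.845 and the endothelial and pericyte genes at 3.16 and 2.76, with 0 genes of these lists reaching 10 CPM. The amacrine genes summed to 18.1 and 24.03 CPM, mostly Gad2, the bipolar genes to 42.9 and 63.1, nearly all Prkca, the horizontal cell genes to 14.3 and 13.6 and the Muller glia and progenitor genes to 42.4 and 48.96. Of these lists Gad1, Vsx1, Grm6, Lhx1, Gfap, Cx3cr1 and Mki67 were among the genes at 0 in all kept cells, but others were found often. Gad2 was found in 11.1% of P1 and 20.9% of P5 cells, Prkca in 33.7% and 54.4%, and Onecut1 in 24.7% and 22%. Glul was found in 33.7% and 59.3%, Sfrp2 in 33.7% and 44%, and Csf1r in 4.74% and 6.04%. The 4 haemoglobin genes summed to 79.2 CPM at P1 and 0.319 CPM at P5, with both tested genes more than 2-fold lower at P5. Of the sex transcripts Xist was lower at P5 and the 4 Y-linked genes were higher, each past 2-fold. The 10 ganglion cell markers summed to 3173 and 3119 CPM and the 4 ipRGC markers to 1904 and 1369 CPM, with 0 past 2-fold in either list. The ipRGC markers differed in direction. Eomes was 0.522-fold and Tbx20 0.585-fold at P5, while Opn4 was 1.47-fold and Adcyap1 1.70-fold.

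Some chaperone levels rest on reads that near-identical copies can share, and how the authors' counting treated them is not given in the sources used here. In GENCODE M21 transcripts of at least 95% identity over 100 bases were found elsewhere for 5 of the 10 genes. Their copies held 15.8% of the joint fragments for Hspe1, 13.5% for Hspd1, 4.18% for Dnaja1, 2.81% for Hspa8 and 2.46% for Hsp90aa1. With the copies added, the log2 ratio of P5 over P1 stayed at 0.62 for Hspa8 and at 0.39 for Hsp90aa1. For Hspe1 it moved from -0.07 to 0.00 and for Hspd1 from -0.03 to 0.00, so neither is given a direction. Hsph1, at chr5:149614287-149636376 on the minus strand, had no such copy and no overlapping exon of another gene, and neither had Hsp90ab1, Hspa5, Hspa4 and Dnajb1. Dnaja1 shared 608 exon bases with Smu1 on the other strand, which held 53304 fragments, and the first exons of Hspd1 and Hspe1 overlapped head to head, so their levels are uncertain to that extent.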

How the data were processed

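Sorted ipRGCs were sequenced as Smart-seq2 libraries (75 bp paired-end, as the study's methods state). The authors aligned reads to GRCm38.p6 (mm10) with HISAT2 2.1.0, converted them with SAMtools 1.9, and estimated and normalized abundance with Cuffquant and Cuffnorm of Cufflinks 2.2.1. The annotation, strand and multiple-mapping settings are not given in the sources used here. The deposited tables hold fragments per gene divided by a factor per cell (unit signal, not whole counts), FPKM values, and that factor per cell as a ratio with the library's total mass as a signal. Fragments were recovered as value times factor, and 95.7% of values of at least 0.5 were within 0.01 of a whole number. They are estimates, so no count model was used.

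Ages came from the labels. Summed CPM, shares with exact Clopper-Pearson intervals and exact Poisson intervals at 95% were computed with Python 3.11.15, pandas 2.3.3 and scipy 1.17.1, and copies were found with BLAST+ 2.17.0. Genes of at least 10 CPM at either age were compared, and called at 2-fold. The calculation of ratios was checked on simulated fragments. Of 55331 gene IDs 54583 were in GENCODE M21. The members and lists were chosen with earlier results of these data known. Named genes are the 10 members, the 10 genes most like Hsph1 over cells, and the largest rise and fall of each list. Other genes named (Hspa1a, Hspa1b, Fos, Dusp1, Jund, Cryab, and those alike to other members) were chosen after their values were seen. So were the single markers of other retinal cells. Alternatives covered cell and gene filters, scales, thinning, sex class and correlation measures, and 3 more were added after seeing the data. 2 P1 and 10 P5 cells were left out for low gene numbers, and no doublet caller was run on these singly sorted cells.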

Additional observations from a re-analysis of the deposited data

Results flagged for a closer look

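Of the 12 cells left out for low gene numbers, which held at most 116719 fragments, 3 had a fragment of at least 1 chaperone and 0 had Hsph1. They stand out because they carry signal outside the comparisons. With no filter on cells Hsph1 was 2.42-fold higher at P5, as with it.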

How the results depend on the processing

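The number of chaperones past 2-fold between ages was 1 by summed CPM, 0 on the deposited scaled fragments, 0 by mean FPKM, 0 without the cells with a haemoglobin fragment (chosen after seeing the data), 2 in cells with Y-linked fragments only (Hsph1 and Dnajb1) and 3 by the mean of log2(CPM + 1) (Hsph1, Hspa5 and Dnajb1). These counts cover both directions. Of all genes tested the share past 2-fold with P5 higher was 2.75% by summed CPM, 0.880% on the scaled fragments, 0.909% by mean FPKM, 5.37% without the haemoglobin cells, 16.8% in cells with Y-linked fragments only and 18.9% by the mean of log2(CPM + 1). With P5 lower the share was 2.88%, 16.9%, 17.03%, 4.80%, 11.4% and 0.244% in the same order. That last scale moved the median of all genes to 0.55, against which Hspa5 was at 0.50, and the scaled fragments and mean FPKM moved it to -0.56. The mean of log2(CPM + 1) gives weight to the share of cells with the gene, and the Hsph1 ratio on it was 2.11. Over all 12 alternatives the log2 ratio of Hsph1 was from 0.80 to 2.11 and higher at P5 in each. For cells with Opn4 only against the rest at P1 it was -2.04 in cells with Y-linked fragments only and -2.42 without the top 5% of cells. The value of -2.04 rests on 26 P1 cells, of which 19.2% held Hsph1. The range was -2.42 to -0.89 over 13 alternatives. The shares of cells with Hsph1 stayed within 19.2% to 29.03% at P1 and 51.1% to 61.2% at P5, and the median pair correlation within 0.00 to 0.09 and 0.03 to 0.15. Removing the top 5% of cells of each gene raised the median of all genes by 0.19 on the log2 scale. The cause of these moves was not tested. No paired analysis was possible because the replicate numbers name single cells and each age is 1 sample with no test. Smart-seq2 without molecular identifiers limits what a single cell near 1 fragment can show.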
